A study of Mus musculus with 14 samples.

Results

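Integrins and laminins, the receptors and the sheet-forming ligands of cell adhesion to matrix, were followed across RNA-seq libraries of mouse caudal intervertebral discs (IVDs) from 2 models of type 2 diabetes. The members were all protein-coding genes of the count table whose symbol names an integrin alpha chain, an integrin beta chain or a laminin chain, which gave 37 of 55487 genes, with 18 alpha chains, 8 beta chains and 11 laminin chains. The db/db mice (n = 3) are homozygous for a mutation of the leptin receptor that all their cells carry, and their db/+ littermates (n = 3), heterozygous for the same mutation, served as controls at 12 weeks of age. The STZ-HFD mice (n = 4) ate a high-fat diet for 4 to 6 weeks, received 1 injection of streptozotocin (STZ, a toxin of insulin-producing cells) at 100 mg/kg and stayed on the diet for 12 more weeks. The Con+Veh mice (n = 4) were C57BL/6J wild types on control chow that received the citrate vehicle. The paper took both of these groups from C57BL/6 males given as 12 weeks old. Their age at harvest is not stated, but the lead-in and the 12 weeks after injection put it above that of the db mice. Each library held the pooled RNA of 5 discs from 1 male mouse, so every group is a set of mice and every value a mixture of the nucleus pulposus, annulus fibrosus, endplate and any attached tissue.

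Integrins are membrane receptors made of 1 alpha and 1 beta chain. The pair decides the ligand, which can be a collagen, a laminin, a protein with the RGD tripeptide such as fibronectin, or a counter-receptor on another cell. Laminins are cross-shaped trimers of an alpha, a beta and a gamma chain that assemble into the basement membranes around vessels, nerves, muscle fibres and epithelia, and they also lie around nucleus pulposus cells. Collagen-binding integrins are best known in cartilage and fibroblasts, and the integrins that share the beta chain of *Itgb2* are restricted to leukocytes.

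Total counts ranged from 16076908 to 58943169 per library, and 3 counts corresponded to 0.0509 to 0.187 CPM (counts scaled to a common library size by the library total and, in all values below, by its TMM factor). Such floors cover counting error only. Ribosomal RNA genes held 28.1% to 39.7% of the counts in the db/+ and db/db libraries and 44.4% to 60.2% in Con+Veh and STZ-HFD. STZ-HFD replicate 1 stood apart, with a count on 42626 genes against 25194 to 29924 in the other 13 libraries. The fit weighted the libraries by their scatter, from 0.275 for Con+Veh replicate 1 and 0.379 for STZ-HFD replicate 1 to 3.05 for Con+Veh replicate 3. The 8 cartilage markers summed to 13667 to 23538 CPM in db/+ and 5467 to 13962 CPM in db/db, but to 1429 to 3367 CPM in Con+Veh and 654 to 1341 CPM in STZ-HFD. Among the 9 markers of the nucleus pulposus and notochord, *Noto* was at 0 counts in 11 libraries and *Shh* in 8. Of 14 lists of cell type markers, 0 reached p = 0.05 in either model in exact permutation tests, two-sided, which cannot go below p = 0.1 with 3 mice a group or 0.0286 with 4. In db/db, 2 of the lists were at the smallest p this design allows (0.1). The 7 adipocyte markers summed to 329 to 608 CPM in db/db and 196 to 430 CPM in db/+, and 6 of the 7 had a higher mean in db/db. All 7 also had a higher mean in STZ-HFD, with sums of 842 to 993 CPM against 362 to 866 in Con+Veh (two-sided exact permutation p = 0.0857 for their mean log2 CPM). The 8 endothelial markers summed to 311 to 395 CPM in db/db and 221 to 299 CPM in db/+, with a higher mean in db/db for 7 of the 8. In pooled tissue, fewer cells of a type and less RNA per cell cannot be told apart.

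Levels can be compared between genes only per length, and were taken as CPM per kilobase of exon, averaged over the 14 libraries. Averaged in this way, the discs held high levels of the beta chain that most alpha chains share, *Itgb1* (19.8 CPM per kb), and of the laminin chains *Lamb2* (17.2) and *Lamc1* (10.02). On the same scale, *Itga5*, the alpha chain of the classical fibronectin receptor, was at 10.1 CPM per kb, *Itgb5*, a partner of the alpha v chain, at 8.34, and *Itga6*, a laminin receptor, at 6.55. *Lama4*, the laminin alpha chain of vessel walls, was at 5.79. By its mean level per length, *Itgb1* ranked above 96.9% of 21817 protein-coding genes, and *Lamb2* above 96.4%. The order of these 2 chains differed between groups, since *Itgb1* was at 29.9 CPM per kb in db/db and 18.6 in STZ-HFD but at 14.9 in db/+ and 17.0 in Con+Veh, where *Lamb2* was at 18.3 and 17.9.

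**Figure D1:**
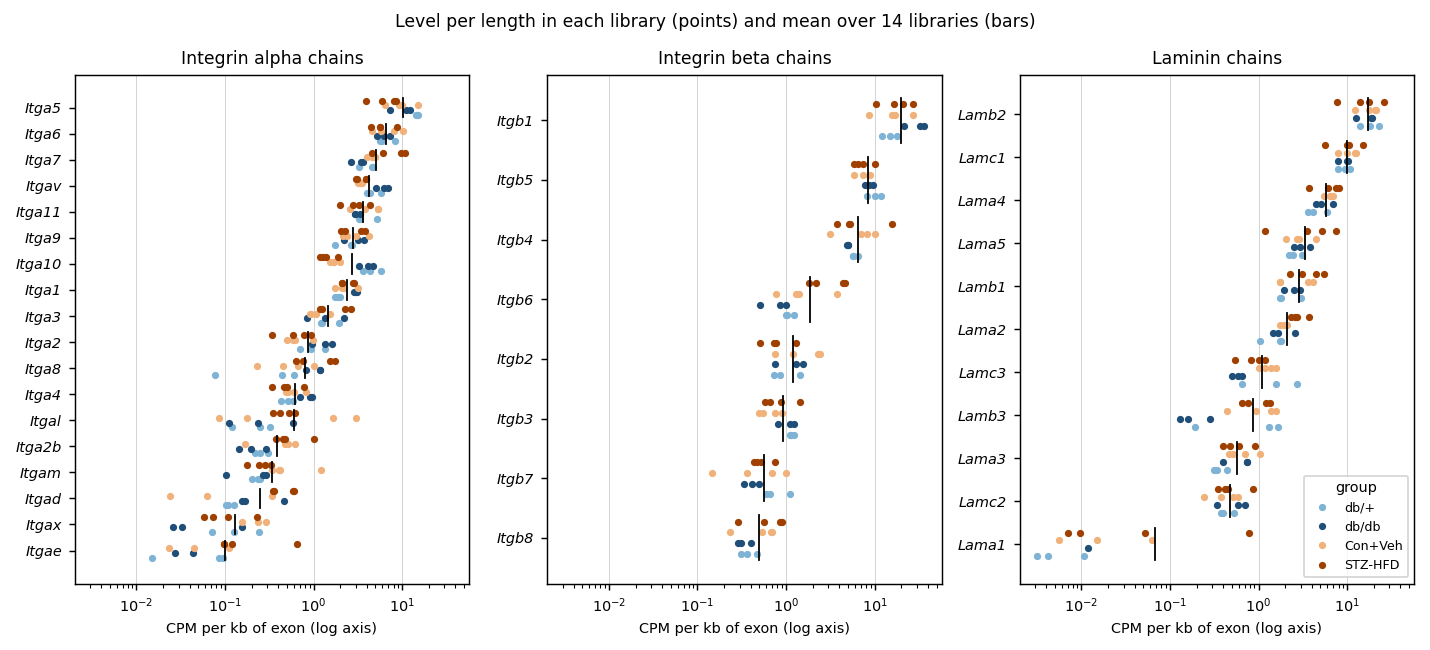
CPM per kb of exon (log axis) of the 37 chains in each of 14 libraries (points, coloured by group), with the mean over all libraries as a bar; libraries at 0 are not drawn. Itgb1, Lamb2, Itga5 and Lamc1 lead with means of 10 to 19.8 CPM per kb, and Lama1 is last at 0.0685, with its highest point in an STZ-HFD library.

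The families differed in how much of their summed level per length the leading chain held. *Lamb2* made up 82.1% of the laminin beta chains and *Lamc1* 86.4% of the gamma chains, while *Lama4* made up 48.8% and *Lama5*, an alpha chain of mature basement membranes, 28.0% of the alpha chains. *Itgb1* made up 49.9% of the integrin beta chains over all libraries, with 63.3% in db/db and 42.2% to 46.9% in the other groups. No alpha chain of the integrins led in this way: *Itga5* made up 23.4% over all libraries and 16.5% in STZ-HFD, where *Itga7* made up 19.3%. Neighbours in the order were not well separated: in 34 of 36 neighbouring pairs the upper member was higher in 4 to 11 of the 14 libraries, and in the other 2 pairs, *Lamb2* over *Itga5* and *Itgb5* over *Itga6*, in 13. With the length of the longest transcript in place of all exons, *Itga1* (4.08 CPM per kb) took the place of *Itga11* at the head of the collagen-binding chains, and *Itga6* (13.7) that of *Itga5* at the head of all alpha chains.

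Of the 37 members, 35 passed the minimum for low expression, which was more than 1 CPM in at least 3 libraries. *Lama1*, the laminin alpha chain of embryonic basement membranes, and *Itgae*, the alpha chain of intraepithelial lymphocytes, did not pass. *Lama1* had 184 counts in STZ-HFD replicate 1 and 0 to 17 in the other libraries. *Itgae* had 73 counts in that library and 0 to 28 elsewhere.

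A gene was called when limma's voomWithQualityWeights gave a Benjamini-Hochberg adjusted p under 0.05 over all 16915 genes tested and the log2 fold change was at least 1 in size. In STZ-HFD against Con+Veh, 1 of 35 members was called, *Itgb6*, which was higher, beside 2.61% of all genes tested and 1.30% called higher. In db/db against db/+, limma called 0 of 35 members, beside 1.66% of all genes. At an unadjusted p under 0.05 the counts were 12 members in STZ-HFD (17.9% of all genes) and 8 in db/db (21.1% of all genes). The members' median log2 fold change was -0.14 in STZ-HFD and -0.10 in db/db, and that of all genes tested was -0.04 in each. In db/db, the libraries of the groups did not overlap in CPM for 5 members that were higher (14.1% of all genes) and 3 that were lower (11.7%). In STZ-HFD, this held for 2 higher (1.97%) and 1 lower (2.77%). The chains described with values are *Itgb6*, the leading chain of each role and *Itgb2*, which the paper names. All others named were chosen after their values were seen.

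**Figure D2:**
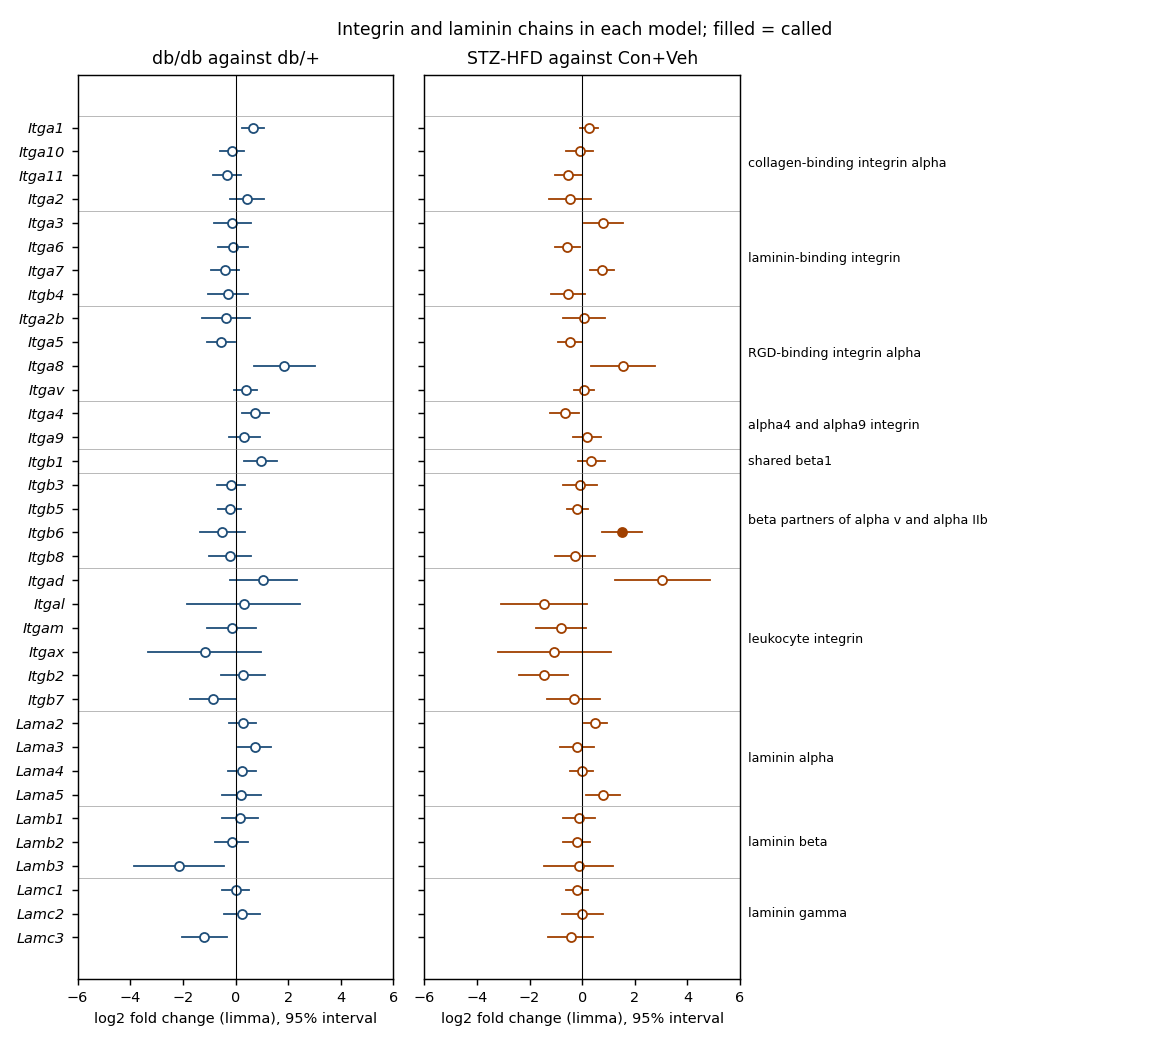
Log2 fold change of the 35 tested chains with its 95% interval from limma, in db/db against db/+ and STZ-HFD against Con+Veh, grouped by role; filled points are called. The one filled point is Itgb6 at 1.52 in STZ-HFD, and the intervals of the rarest leukocyte chains are widest.

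The laminin chains, the ligands of the family, gave no call in either model. *Lamb2* was at 139, 110 and 85.1 CPM in db/+ and 114, 75.8 and 115 in db/db, and at 125, 74.0, 107 and 130 CPM in Con+Veh and 46.2, 157, 106 and 85.2 in STZ-HFD. Its groups overlapped in both models, with log2 fold changes of -0.15 (95% interval -0.77 to 0.48) in db/db and -0.21 (-0.72 to 0.30) in STZ-HFD. *Lamc1*, the gamma chain of most laminins, gave 77.3, 88.5 and 64.6 CPM in db/+ and 83.0, 65.7 and 85.0 in db/db. In the other cohort it gave 81.5, 64.9, 102 and 105 CPM in Con+Veh and 46.0, 126, 87.6 and 82.7 in STZ-HFD, and its interval in STZ-HFD ran from -0.63 to 0.23 on the log2 scale. *Lama4* was at 49.4, 70.7 and 43.5 CPM in db/+, 84.0, 53.6 and 61.4 in db/db, 80.4, 67.0, 84.3 and 77.7 in Con+Veh and 45.3, 96.9, 89.7 and 74.0 in STZ-HFD. For these 3 chains, changes of more than 2-fold lay outside the 95% intervals in both models.

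The laminin chains with the largest fold changes were the beta and gamma chains *Lamb3*, part of the laminin under stratified epithelia, and *Lamc3*. *Lamb3* was at 1.06, 0.857 and 1.86 CPM in db/db, and at 11.1 and 8.74 CPM in 2 of the db/+ libraries but 1.27 in the other, so the groups overlapped. Its log2 fold change was -2.15 (standard error 0.81, limma adjusted p = 0.144), and without that low db/+ library (replicate 1) it was -3.03 (adjusted p = 0.0261). *Lamc3* was at 3.55, 4.01 and 3.06 CPM in db/db and 16.6, 3.93 and 9.52 in db/+, and here db/+ replicate 2 was the low one. Its log2 fold change was -1.20 (standard error 0.41, limma adjusted p = 0.114) with all libraries and -1.82 (adjusted p = 0.0242) without that one. In both chains the library left out was the low control, picked after its values were seen, which by itself enlarges the fall. With each of the 14 libraries left out in turn, both chains were called in 1 fit only. The limma adjusted p ran from 0.0261 to 0.312 for *Lamb3* and from 0.0242 to 0.242 for *Lamc3*. In STZ-HFD, *Lama2*, the laminin alpha chain of muscle fibres, was at 37.8, 61.0, 45.0 and 42.2 CPM against 28.8, 34.3, 31.4 and 33.2 in Con+Veh. These groups did not overlap, but the log2 fold change of 0.50 (standard error 0.21) did not pass (limma adjusted p = 0.217).

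The laminin receptors *Itga3*, *Itga6*, *Itga7* and *Itgb4* gave no call. *Itga6*, which pairs with the beta chains of *Itgb1* and *Itgb4*, was at 53.4, 75.5 and 50.6 CPM in db/+ and 65.5, 46.9 and 56.7 in db/db. In the other cohort it was at 51.6, 41.0, 72.9 and 93.0 CPM in Con+Veh and 50.4, 78.6, 51.2 and 40.0 in STZ-HFD, so the groups overlapped in both models. *Itga7*, the main laminin receptor of skeletal muscle, was at 36.7, 78.3, 86.8 and 48.9 CPM in STZ-HFD and 32.2, 39.6, 37.3 and 39.7 in Con+Veh. Of the STZ-HFD libraries, 3 lay above all controls, and the log2 fold change was 0.75 (standard error 0.22, limma adjusted p = 0.0738). The 10 skeletal muscle markers moved in the same model, each with a higher mean in STZ-HFD. Their sum was 7166 to 17123 CPM against 6162 to 7513 in Con+Veh (two-sided exact permutation p = 0.0571 for their mean log2 CPM), and their part in the *Itga7* values was not tested.

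The collagen-binding alpha chains *Itga1*, *Itga2*, *Itga10* and *Itga11* also gave no call. *Itga11*, a fibrillar collagen receptor of fibroblasts, was at 26.5, 17.1 and 16.8 CPM in db/+, 15.1, 15.0 and 17.0 in db/db, 27.1, 13.2, 27.2 and 19.5 in Con+Veh and 10.3, 22.5, 14.2 and 16.9 in STZ-HFD. Its groups overlapped in both models. *Itga1*, a receptor with a preference for network-forming collagen, was at 53.2, 56.6 and 57.0 CPM in db/db and 34.8, 36.8 and 32.5 in db/+. These groups did not overlap and varied little within themselves, and the log2 fold change was 0.67 (standard error 0.20, limma adjusted p = 0.0752). *Itga10*, the collagen receptor of chondrocytes, was at 16.7 to 29.8 CPM in the db/+ and db/db libraries and 6.17 to 10.2 CPM in the Con+Veh and STZ-HFD libraries. That gap lies between the cohorts, which differ in age, genotype, schedule and share of ribosomal RNA and were not tested against each other. The cartilage markers differ in the same direction. *Itga10* shares 1739 of its 5186 exon bases with the overlapping gene *Gm42957*, and the sources used here do not say how reads there were assigned.

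Among the chains that bind RGD ligands, *Itga5* was at 72.2, 74.0 and 70.8 CPM in db/+ and 54.9, 36.3 and 61.0 in db/db. The db/db libraries were all lower, with a log2 fold change of -0.55 (95% interval -1.09 to -0.01, limma adjusted p = 0.225). In STZ-HFD it was at 19.3, 41.8, 29.2 and 40.3 CPM against 74.6, 31.4, 48.7 and 45.0 in Con+Veh, which overlapped. *Itga8*, the receptor for nephronectin, gave the largest fold change of an RGD-binding chain in both models. It was at 8.62, 6.07 and 8.69 CPM in db/db and 3.24, 4.48 and 0.572 in db/+, and at 4.70, 12.96, 11.2 and 5.56 CPM in STZ-HFD and 7.43, 3.33, 1.68 and 4.92 in Con+Veh. The db groups did not overlap and the others did. Its log2 fold changes were 1.85 (standard error 0.55, limma adjusted p = 0.0795) in db/db and 1.56 (standard error 0.58, limma adjusted p = 0.152) in STZ-HFD.

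The beta chain *Itgb6*, which pairs only with the alpha v chain and is known for activating transforming growth factor beta in epithelia, rose in STZ-HFD. It was at 15.4, 12.9, 31.5 and 33.1 CPM in STZ-HFD and 9.86, 26.9, 9.16 and 5.46 in Con+Veh, so 1 control library lay among the STZ-HFD libraries. The mean was 23.2 ± 10.6 CPM (SD, n = 4) against 12.8 ± 9.55 (n = 4), and the log2 fold change 1.52 (standard error 0.36, limma adjusted p = 0.0281). The call was lost in 13 of 27 alternatives. That share understates how easily it was lost. The alternative without a fold minimum is the main fit again and could not lose it. Those that left out a db/db or db/+ library, all of which kept it, removed no mouse of this comparison. Without library weights limma gave 0.88 (adjusted p = 0.482), edgeR's quasi-likelihood test 0.85 (adjusted p = 0.424) and DESeq2 0.86 (adjusted p = 0.33). With the weights kept, it was lost with filterByExpr (limma adjusted p = 0.0617), with no filter on low counts (0.14), with each model fitted alone (0.0608) and when the 2 libraries with a shared name ending were left out (0.0614). It was also lost without Con+Veh replicate 3 (limma adjusted p = 0.352) or 4 (0.246) and without STZ-HFD replicate 3 (0.289) or 4 (0.175), while the log2 fold change stayed positive in all 27 alternatives, from 0.85 to 2.17. In db/db, *Itgb6* was at 7.18, 6.14 and 3.59 CPM against 7.02, 8.74 and 7.20 in db/+. The 8 keratinocyte markers summed to 8.43 to 26.7 CPM in STZ-HFD and 9.08 to 21.8 CPM in Con+Veh (two-sided exact permutation p = 0.971 for their mean log2 CPM), with *Krt5* at 0 counts in 10 of the 14 libraries and *Krt14* in 6.

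The other partners of the alpha v chain, *Itgb3*, *Itgb5* and *Itgb8*, were not called, with log2 fold changes between -0.28 and -0.08 in both models. *Itgb5* was at 42.4, 36.3 and 28.9 CPM in db/+, 30.8, 27.4 and 33.9 in db/db, 26.3, 20.6, 31.2 and 30.9 in Con+Veh and 20.7, 35.7, 26.5 and 23.2 in STZ-HFD. Its groups overlapped, and its 95% intervals ran from -0.68 to 0.22 in db/db and from -0.60 to 0.20 in STZ-HFD. *Itgb1* was at 133, 86.7 and 147 CPM in db/db and 60.4, 72.9 and 49.5 in db/+. Every db/db library lay above every db/+ library, and the log2 fold change was 0.96 (standard error 0.30, limma adjusted p = 0.0903). None of *Itgb1*, *Itga1*, *Itga8*, *Itga4* and *Itgad* was called in db/db. The 5 of 35 members that were higher there without overlap are close to the share of all genes (14.1%). Most of the adipocyte and endothelial markers given above also had a higher mean in db/db, and the adipocyte markers had one in STZ-HFD as well. In the other cohort *Itgb1* was at 42.0, 66.9, 110 and 85.8 CPM in STZ-HFD and 35.2, 110, 64.0 and 68.6 in Con+Veh, which overlapped. *Itga9*, a receptor for tenascin and osteopontin, was at 20.4, 20.7 and 13.3 CPM in db/+, 24.7, 16.9 and 28.7 in db/db, 32.7, 18.3, 16.6 and 23.02 in Con+Veh and 15.5, 29.2, 26.6 and 17.2 in STZ-HFD, again with overlap.

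**Figure D3:**
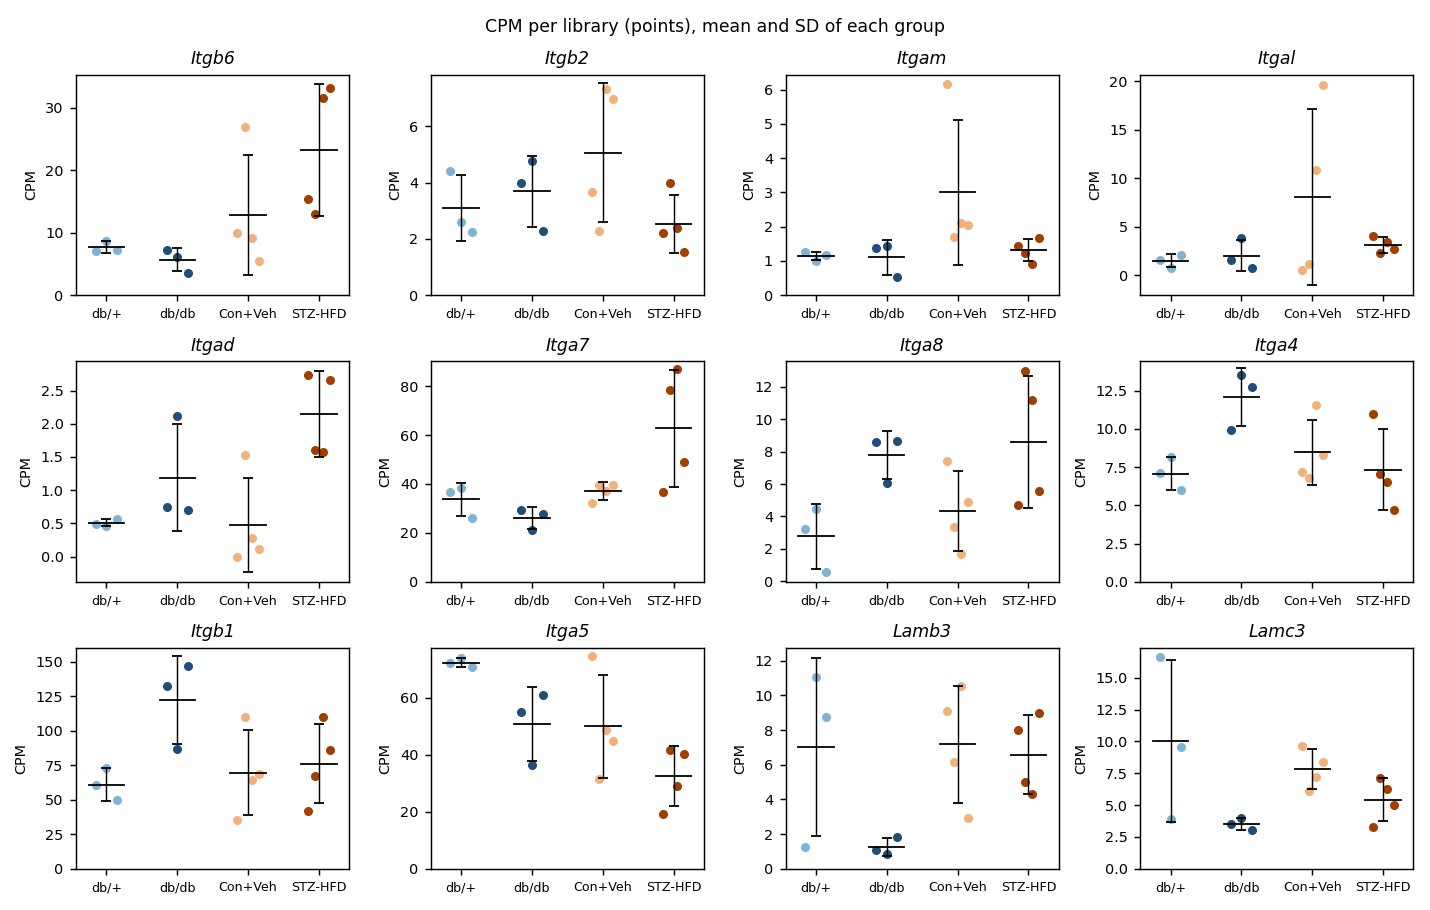
CPM of 12 chains in each library (points) with the mean and SD of each group (db/+ and db/db n = 3, Con+Veh and STZ-HFD n = 4). Itgb6 shows 1 control library at 26.9 CPM among the STZ-HFD libraries, Itgb1 and Itga4 lie higher in all 3 db/db libraries, and Itgb2 and Itgal are highest in 2 Con+Veh libraries.

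The 6 leukocyte chains tested had the lowest median of any role in STZ-HFD, a log2 fold change of -0.94, with 1 of 6 above 0, and none was called. *Itgb2*, the beta chain of the leukocyte integrins, was at 2.21, 4.00, 2.38 and 1.54 CPM in STZ-HFD and 3.68, 2.29, 7.34 and 6.97 in Con+Veh. The controls fell into a lower and a higher pair, and STZ-HFD overlapped the lower one. The higher pair, Con+Veh replicates 3 and 4, had the largest library weights among the controls (3.05 and 1.81). The log2 fold change was -1.46 (standard error 0.44, limma adjusted p = 0.0803), and it was -0.77 (adjusted p = 0.599) without library weights and -1.66 (adjusted p = 0.0235) without Con+Veh replicate 2. The paper reports *Itgb2* as downregulated in STZ-HFD, whereas it was not called here. In db/db *Itgb2* was at 3.99, 4.77 and 2.30 CPM against 4.43, 2.59 and 2.24 in db/+, with overlap. *Itgal*, the alpha chain of lymphocyte function-associated antigen, showed the same pair of high controls, at 10.9 and 19.7 CPM against 0.567 and 1.18 in the other controls and 2.29 to 4.05 in STZ-HFD. *Itgam*, the alpha chain of the macrophage and neutrophil receptor, was at 1.43, 1.23, 0.896 and 1.66 CPM in STZ-HFD and 6.16, 1.69, 2.10 and 2.05 in Con+Veh. The groups did not overlap but nearly met, and the log2 fold change of -0.81 (standard error 0.45) did not pass (limma adjusted p = 0.369). The 10 macrophage markers summed to 119 to 206 CPM in STZ-HFD and 167 to 344 CPM in Con+Veh (two-sided exact permutation p = 0.0571 for their mean log2 CPM), 9 of the 10 had a lower mean in STZ-HFD, and none was at 0. Their part in the leukocyte chain values was not tested.

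The exception was *Itgad*, a rare alpha chain of macrophages, with 67, 47, 51 and 90 counts in STZ-HFD and 0, 74, 6 and 2 in Con+Veh. In CPM the groups did not overlap, at 1.58 to 2.74 against 0 to 1.53, and the fitted log2 fold change of 3.04 (standard error 0.86), which depends on the prior count since 1 control is at 0, did not pass (limma adjusted p = 0.0593). In db/db *Itgad* was also higher without overlap, at 0.751, 2.11 and 0.703 CPM against 0.490, 0.467 and 0.572 in db/+, and was not called. Its exons share 70 bases with *Cox6a2*, a cytochrome oxidase subunit of muscle on the opposite strand, which was at 102 to 451 CPM in STZ-HFD and 197 to 306 CPM in Con+Veh. Whether the counting used the strand is not given in the sources used here. *Itgam* shares 3450 of its 5024 exon bases with *Gm49368*, so its level per length is uncertain in the same way. A gene of the adhesion complex that most cells use, *Ilk*, had 0 to 51 counts per library. Over all members, 12 share exon bases with another annotated gene and 9 with one on the opposite strand.

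The promoter table of RefSeq (GRCm38.p6) held 23 of the 37 members, and 3 of the leukocyte chains were among them. Their 250 bases before the transcription start are shown because this role had the lowest median in STZ-HFD and because promoters of myeloid genes are known for purine-rich sites of the factor PU.1. Capitals mark AGGAAG or, on the other strand, CTTCCT, and all sequences read 5′ to 3′ on the strand of the gene. They are *Itgam* (chr7:128062390-128062639, plus strand), *Itgax* (chr7:128129300-128129549, plus strand) and *Itgb7* (chr15:102231936-102232185, minus strand).
Itgam: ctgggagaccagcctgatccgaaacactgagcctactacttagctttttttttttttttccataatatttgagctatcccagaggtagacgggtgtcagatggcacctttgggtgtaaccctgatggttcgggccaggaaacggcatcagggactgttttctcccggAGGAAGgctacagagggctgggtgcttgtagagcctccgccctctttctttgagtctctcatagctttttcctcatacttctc
Itgax: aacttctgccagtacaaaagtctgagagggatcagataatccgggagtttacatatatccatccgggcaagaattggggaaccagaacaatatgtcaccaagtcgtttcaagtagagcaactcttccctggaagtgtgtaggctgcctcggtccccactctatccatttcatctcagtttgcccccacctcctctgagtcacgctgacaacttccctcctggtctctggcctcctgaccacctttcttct
Itgb7: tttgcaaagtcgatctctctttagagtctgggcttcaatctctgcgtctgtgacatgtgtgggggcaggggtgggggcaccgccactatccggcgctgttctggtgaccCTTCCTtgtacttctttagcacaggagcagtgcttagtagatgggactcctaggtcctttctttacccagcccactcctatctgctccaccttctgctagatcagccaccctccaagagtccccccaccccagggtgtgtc
*Itgam* held AGGAAG once on the gene's strand and *Itgb7* once on the other strand, and *Itgax* held none. The longer GAGGAAGT, which contains AGGAAG, was in none of the 3 on either strand. Of all 32851 promoters of this length, 29.5% held AGGAAG and 2.44% GAGGAAGT on either strand, and 11 of the 23 members' promoters held AGGAAG.

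The test of the difference between the models (the effect in db/db minus the effect in STZ-HFD) called 0 of 35 members with limma, beside 1.77% of all genes tested, and 5 members had an unadjusted p under 0.05 (17.3% of all genes). *Itga4*, which pairs with *Itgb1* or *Itgb7* to bind vascular cell adhesion molecules, came closest, with a difference of 1.42 (standard error 0.36, limma adjusted p = 0.0512). It was at 9.92, 13.5 and 12.7 CPM in db/db and 7.10, 8.15 and 6.00 in db/+, without overlap, and at 11, 7.08, 6.52 and 4.70 CPM in STZ-HFD and 7.22, 6.82, 11.5 and 8.32 in Con+Veh. For *Itgb6* the difference was -2.03 (standard error 0.54, limma adjusted p = 0.0615), and for *Itga7* it was -1.14 (standard error 0.34, limma adjusted p = 0.0922). So a call of *Itgb6* in STZ-HFD alone does not show that the models differ in it.

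Among 22 tested ligands of integrins other than laminins, 7 fell and 0 rose in STZ-HFD (1.31% of all genes were called lower), with a median log2 fold change of -0.79. By size these were led by *Chad*, a cartilage protein that binds collagen receptors (-4.26), *Spp1*, or osteopontin (-2.25), *Thbs1*, or thrombospondin (-1.95), *Tgfbi* (-1.63) and *Fn1*, or fibronectin (-1.62). *Fn1* was at 510, 987, 732 and 1169 CPM in STZ-HFD and 1579, 1657, 2453 and 3836 in Con+Veh, without overlap. *Spp1* was at 174, 290, 139 and 260 CPM in STZ-HFD and 583, 525, 1074 and 988 in Con+Veh, also without overlap. *Thbs1* overlapped between the groups, at 106 to 240 CPM in STZ-HFD and 185 to 765 in Con+Veh. Of the 22 ligands, 5 were lower in STZ-HFD without overlap (2.77% of all genes). The ligands, like the lists below, were chosen with earlier results of these data known. The paper itself names *Chad*, *Spp1* and *Fn1* as decreased in STZ-HFD. Set beside the shares of all genes, these counts therefore do not test whether ligands fell as a set in STZ-HFD. The 8 cartilage markers were lower in the same model, 7 of the 8 in their mean (two-sided exact permutation p = 0.0571 for their mean log2 CPM), and their part in these values was not tested. In db/db, limma called 0 of the 22 ligands (1.66% of all genes), and 5 had an unadjusted p under 0.05, which is close to the share of all genes (21.1%). The difference between the models was called for *Chad* (3.63), *Spp1* (2.67) and *Tgfbi* (1.95). Beside the fall of *Fn1* in STZ-HFD, the alpha chain of its receptor, *Itga5*, had a log2 fold change of -0.47 (95% interval -0.93 to -0.02, limma adjusted p = 0.26).

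Of 7 other laminin receptors, the syndecans *Sdc4* (-1.28) and *Sdc3* (-1.25), heparan sulfate proteoglycans of the cell surface, fell in STZ-HFD, where 1.31% of all genes were called lower. The groups overlapped in both. *Sdc4* was at 19.6 to 49.2 CPM in STZ-HFD and 31.5 to 97.5 in Con+Veh, and *Sdc3* at 16.2 to 45.8 and 43.5 to 90.9. In db/db limma called 0 of the 7 (1.66% of all genes), with 2 at an unadjusted p under 0.05 (21.1% of all genes). Of 15 basement membrane partners, *Ntn4*, a laminin-related netrin (-1.08), and *Sparc*, a collagen-binding matricellular protein (-1.03), fell in STZ-HFD (1.31% of all genes called lower). *Nid2*, a nidogen that links laminin to the collagen network (-1.07), fell in db/db (1.66% of all genes called in either direction). *Sparc* was at 540, 981, 783 and 1078 CPM in STZ-HFD and 689, 1124, 1957 and 1982 in Con+Veh, with overlap, while *Ntn4* did not overlap. The alternatives tried for *Itgb6* were followed for members only, so none is given for the calls in these lists. The other 12 of the 15, the chains of basement membrane collagen included, were called in neither model. In STZ-HFD, 1 of the 15 was higher at a limma adjusted p under 0.05 but below the minimum fold change. Without overlap, 1 of the 15 was higher in STZ-HFD (1.97% of all genes) and 2 were lower (2.77%). The higher one was *Npnt*, or nephronectin, at 26.4, 30.7, 35.3 and 39.0 CPM against 24.9, 24.4, 19.0 and 17.2 in Con+Veh. *Nid2* was at 14.6, 22.3 and 26.4 CPM in db/db and 41.6, 36.7 and 55.7 in db/+, without overlap.

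Among 35 tested integrin activators and adhesion complex genes, 1 was called in STZ-HFD, a share near the 2.61% of all genes, and 3 in db/db, where 1.66% of all genes were called. The difference between the models was called for 1, beside 1.77% of all genes. *Itgb1bp2*, or melusin, a muscle protein that binds the tail of the beta chain of *Itgb1*, rose in STZ-HFD from 3.22 ± 0.824 CPM (SD, n = 4) to 10.99 ± 3.70 (n = 4), which is 1.77 on the log2 scale (standard error 0.32, limma adjusted p = 0.00969). Its difference between the models was -1.99 (standard error 0.48, limma adjusted p = 0.0429). The skeletal muscle markers given above were higher in the same model, and their part in its values was not tested. In db/db, *Rap1b*, a small GTPase that recruits talin, rose from 28.6 ± 3.86 CPM (SD, n = 3) to 66.8 ± 9.32 (n = 3), which is 1.23 on the log2 scale (standard error 0.27, limma adjusted p = 0.0331). *Tln2*, a talin that activates integrins, fell from 128 ± 18.3 CPM to 55.3 ± 5.01, which is -1.20 on the log2 scale (standard error 0.23, limma adjusted p = 0.0228), and the collagen receptor kinase *Ddr1* by 1.28 on the log2 scale (limma adjusted p = 0.0275). In *Rap1b*, *Tln2* and *Ddr1* the db/db libraries lay wholly outside those of db/+, which held for 14.1% of all genes as higher and 11.7% as lower. The 10 skeletal muscle markers each had a lower mean in db/db, with sums of 2172 to 3866 CPM against 3072 to 6581 in db/+ (two-sided exact permutation p = 0.2 for their mean log2 CPM). The part of these markers, and of the adipocyte and endothelial markers that were higher in db/db, in the db/db values of *Tln2*, *Ddr1*, *Rap1b* and the integrin chains was not tested.

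**Figure D4:**
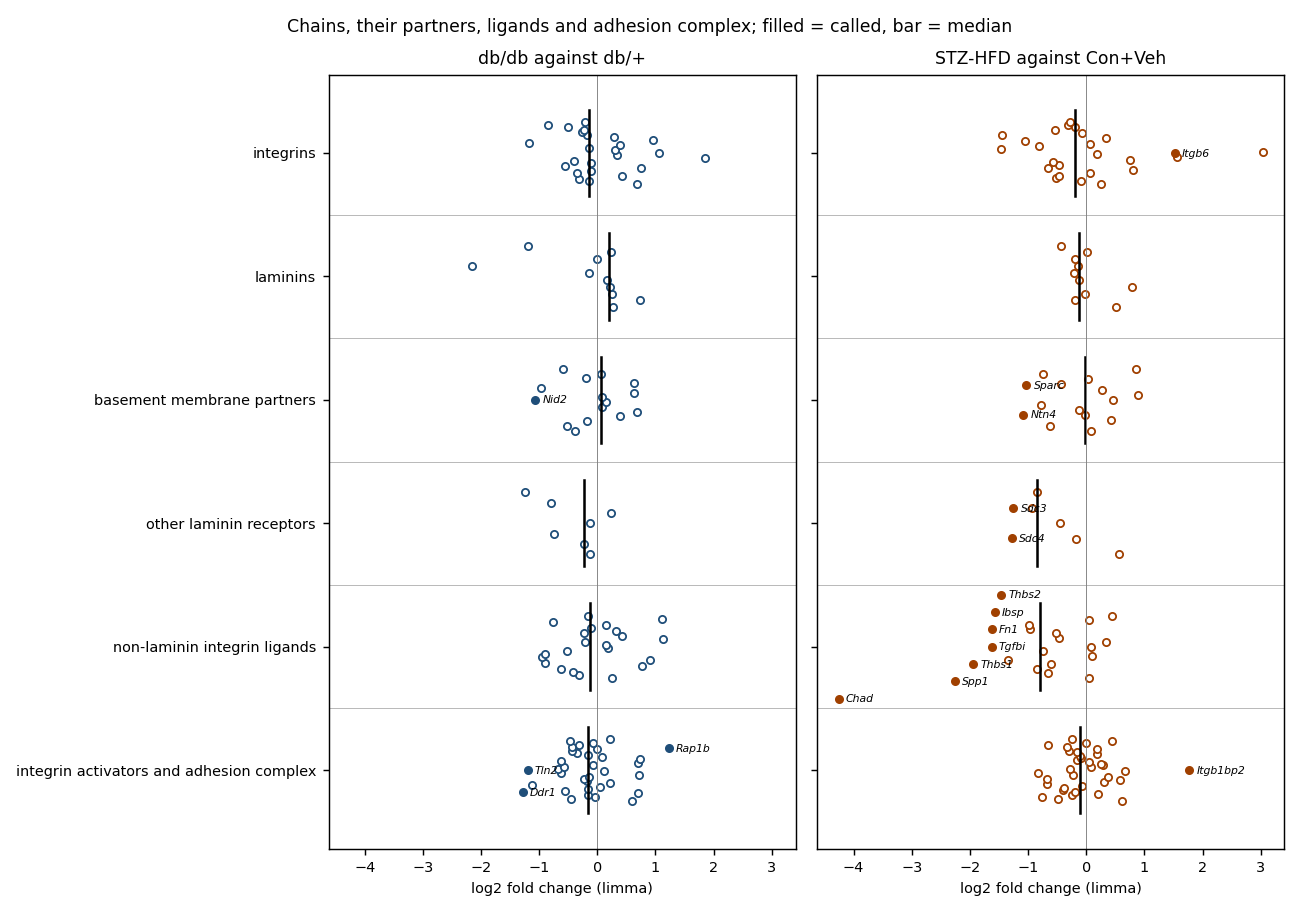
Log2 fold changes (limma) of integrins, laminins and 4 lists of their partners in each model; filled and named points are called and the black bar is each list's median. In STZ-HFD 7 ligands lie at -1.46 or lower, while the integrins and laminins have medians of -0.20 and -0.13.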

How the data were processed

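RNA-seq was measured in 14 libraries, 1 mouse each, grouped by the sample labels. The authors aligned reads with STAR, counted them per gene of Ensembl release 101 with featureCounts and deposited the counts without normalization. They also deposited estimated counts per transcript from Salmon, which entered only 1 alternative here, summed per gene and rounded. Of 55774 lines of gene counts, 287 were repeats of an identifier and were dropped, and 55141 genes were found in GENCODE M21 (GRCm38). The strand setting and the treatment of overlapping genes are not given in the sources used here.

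Counts were scaled with TMM (R 4.3.3, edgeR 4.0.16), and genes above 1 CPM in at least 3 libraries were kept (16915). The paper excluded genes of low expression without giving its minimum, so this one was chosen here. As in the methods of the study, limma 3.58.1 voomWithQualityWeights was fitted, with 1 mean per group (4 in all) and contrasts for each model and their difference, with Benjamini-Hochberg adjustment over all genes tested. A gene was called when the adjusted p was under 0.05 and the fold change, on the log2 scale, 1 or more in size. Marker lists were compared by mean log2 CPM (prior count 2) with two-sided exact permutation tests (scipy). The tests were tried on simulated data first. Depth was 16076908 to 58943169 counts per library.

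Described with values are members called, the member with the highest level per length of each role and *Itgb2*, and of the pathway lists the called genes, at most 5 a list. Members and lists were chosen with earlier results of these data known. As alternatives, DESeq2 1.42.0, the quasi-likelihood test of edgeR, voom without weights, RLE factors, filterByExpr, no filter, each model alone, a replicate block, transcript totals, no fold minimum, removal of a GC trend over 20 bins, removal of ribosomal RNA genes, leaving out 2 libraries whose names share an ending and leaving out each of the 14 libraries were tried. Nothing in the labels says that same-numbered mice belong together, and p-values measure the spread between mice of a group.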

Additional observations from a re-analysis of the deposited data

Results flagged for a closer look

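In the groups of 4, the highest or lowest library of each member was set against the others with Dixon's ratio (at its 95% critical value). Of 74 groups examined, 5 held a library that stood apart, where chance gives about 1 in 20. STZ-HFD replicate 1 was the highest in 3 of them, at 7.52 CPM for *Lama1* against 0.0684 to 0.503 in the other STZ-HFD libraries, 2.99 CPM for *Itgae* against 0.444 to 0.556, and 5.48 CPM for *Itga2b*, the alpha chain of the platelet fibrinogen receptor, against 2.07 to 2.56. That library has the lowest depth, 16076908 counts, and a count on 42626 genes. *Itgb4*, the beta chain of hemidesmosomes, was at 109.8 CPM in STZ-HFD replicate 2 against 26.6 to 37.3 in the other 3. *Itgam* was at 6.16 CPM in Con+Veh replicate 1, the library with the lowest weight, against 1.69 to 2.10 in the other 3.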

How the results depend on the processing

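The count of called members in STZ-HFD, 1 in the report, was 0 with DESeq2, the quasi-likelihood test of edgeR, unweighted voom, filterByExpr, no count filter, separate fits of the models, gene totals from transcript counts and without the 2 libraries that share a name ending, and 0 to 3 with single libraries left out. In db/db, 0 in the report, it was 1 (*Lamb3*) with DESeq2 and 0 to 1 with single libraries left out. For the difference between the models, 0 in the report, it was 1 (*Itgb6*) with the GC content trend removed and 0 to 2 with single libraries left out. With the replicate number as a block it was 4 in db/db (*Itgb1*, *Itga8*, *Lamb3* and *Lamc3*), 0 in STZ-HFD and 0 for the difference. The deviations of same-numbered samples correlated at a mean of -0.091 in the db groups (-0.280 to 0.192) and -0.111 in the others. They gave no sign that the numbers pair the samples, but so few pairs cannot exclude it. Besides *Itgb6*, the single libraries left out gave calls of *Itgad* without Con+Veh replicate 2 or db/db replicate 2, of *Itgb2* without Con+Veh replicate 2, of *Lamb3* without db/+ replicate 1, of *Lamc3* without db/+ replicate 2, and in the difference of *Itga4* without Con+Veh replicate 1 or STZ-HFD replicate 1, of *Itga7* without STZ-HFD replicate 1 and of *Itgb6* without Con+Veh replicate 2 or STZ-HFD replicate 2. With transcript totals the log2 fold changes of *Itga3* in STZ-HFD (-1.93, limma adjusted p = 0.553) and of *Lama3* in db/db (-1.69, limma adjusted p = 0.458) and in the difference (-6.48, limma adjusted p = 0.156) changed sign, among 11 of 34 members whose sign changed in STZ-HFD, 3 in db/db and 10 in the difference, the others with an unadjusted p over 0.05 in the report. The transcripts used there hold a median of 23.7% of a member's gene counts and under 10% for 12 members, so that alternative tests little. The causes of the other changes were not tested. The alternatives were followed for members only, not for the called ligands, partners and adhesion complex genes. Depth sets the floor of 3 counts at 0.0509 to 0.187 CPM.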
